A study of Mus musculus with 8 samples.

Results

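A set of 10 genes that mark the successive steps from an oligodendrocyte precursor to a myelinating oligodendrocyte was followed across single nuclei of the mouse forebrain. They are Pdgfra, Olig1, Olig2, Sox10, Gpr17, Bmp4, Enpp6, Myrf, Bcas1 and Itpr2, and they were matched by symbol to the gene names of the count matrices. The set was chosen with earlier results of these data known. The 10 genes are 10 of the 54232 genes counted, and each symbol matched 1 gene identifier. The gene Bcas1, which encodes a protein of early myelinating cells, has no connection with the surgery abbreviated BCAS in the group names.

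Oligodendrocytes form throughout life from precursors that divide in response to platelet-derived growth factor, which they sense through the receptor encoded by Pdgfra. A precursor that commits to differentiation loses this receptor and passes through a short-lived stage marked by the receptor Gpr17 and the secreted signal Bmp4, then through a newly formed stage marked by the ecto-enzyme Enpp6 and the calcium channel Itpr2. The transcription factor Myrf then switches on the myelin genes, while Olig1, Olig2 and Sox10 are transcription factors present along the whole lineage.

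The nuclei came from frozen perilesional forebrain of male Swiss Webster mice aged 10 weeks, profiled by droplet single-nucleus RNA sequencing that counts the 3′ ends of transcripts with molecular identifiers (UMIs). There were 4 groups of 2 libraries: a control surgery group, a group given BCAS (in the study's title, cerebral hypoperfusion), a group given TBI (traumatic brain injury), and a group given BCAS and TBI (BCAS+TBI). The labels call the libraries of a group biological replicates, do not say whether a library pooled animals, and give no time between surgery and dissection. The tests of gene levels below therefore measure the spread between 2 libraries per group. The tests of shares compare 4 with 4 libraries, so their spread also holds any difference made by the other surgery.

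The 8 libraries held 53390 barcodes, of which 45560 nuclei were kept, with 5049 to 7157 per library. Total UMIs per library ran from 28118725 to 56135192. The libraries fell into a lower-depth set (control 1, BCAS 1, TBI 1 and BCAS+TBI 2, median 3276 to 3830 UMIs per barcode) and a higher-depth set (control 2, BCAS 2, TBI 2 and BCAS+TBI 1, median 5462 to 6409), each with 1 library of every group; the sets come from the data, not the labels. No pair of libraries shared more than 20 barcodes. Nuclei were clustered without the 10 genes, and 2 clusters were named from fixed markers that also excluded the 10 genes. The oligodendrocyte precursor-like class held 1170 nuclei (121 to 175 per library, median 2322 UMIs), with 10 of 10 precursor markers raised, among them Vcan at 1186 CPM (a gene's UMIs scaled to a common total of summed counts) and Cspg4 at 425 CPM. The oligodendrocyte-like class held 2498 nuclei (187 to 464 per library, median 1340 UMIs), with 10 of 10 myelin markers raised, among them Mbp at 4153 CPM. These 3668 nuclei are called the lineage nuclei below. A further 8 clusters stayed unnamed, and 2 of them carried oligodendrocyte markers: cluster 10 (2159 nuclei, median 11701 UMIs, median doublet score 0.136) and cluster 2 (370 nuclei, markers of 2 classes). They were kept out of the lineage classes.

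The sequences just before the start of 3 of these genes are shown because the genes are known as markers of consecutive steps, the precursor (Pdgfra), the committed stage (Bmp4) and the newly formed stage (Enpp6); in these nuclei Bmp4 and Enpp6 were concentrated in the same sub-cluster of the precursor-like class, described below. They are the 250 bases before the transcription start in RefSeq (GRCm38.p6), written 5′ to 3′ on the gene's strand; a promoter was matched for 5 of the 10 genes. Capitals mark the E-box CANNTG, the short motif bound by basic helix-loop-helix factors, the family to which Olig1 and Olig2 belong. The Pdgfra window is chr5:75152001-75152250 on the plus strand, the Bmp4 window chr14:46390670-46390919 on the minus strand and the Enpp6 window chr8:46986637-46986886 on the plus strand.
Pdgfra: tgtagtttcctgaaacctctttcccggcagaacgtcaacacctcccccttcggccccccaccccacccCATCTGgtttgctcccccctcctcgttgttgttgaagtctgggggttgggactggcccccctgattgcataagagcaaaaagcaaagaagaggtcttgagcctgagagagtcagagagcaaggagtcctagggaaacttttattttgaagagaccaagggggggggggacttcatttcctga
Bmp4: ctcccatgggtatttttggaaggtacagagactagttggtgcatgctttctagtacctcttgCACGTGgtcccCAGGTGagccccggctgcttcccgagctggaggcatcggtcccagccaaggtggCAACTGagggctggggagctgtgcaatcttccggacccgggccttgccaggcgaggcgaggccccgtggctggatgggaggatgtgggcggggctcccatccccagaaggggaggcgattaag
Enpp6: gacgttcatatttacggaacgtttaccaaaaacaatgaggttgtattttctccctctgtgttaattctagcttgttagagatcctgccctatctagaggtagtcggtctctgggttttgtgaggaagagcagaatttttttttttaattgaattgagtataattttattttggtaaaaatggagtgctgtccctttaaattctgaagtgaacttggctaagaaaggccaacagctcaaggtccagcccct
The Pdgfra window held 1 E-box and the Bmp4 window 3, while none of these letters occurred in the Enpp6 window. The windows of Olig2 and Itpr2 (not printed) held none either. Of 27025 windows of the same length in the table, 66.0% held at least 1 E-box, so its presence is common. The letters ACAAAG, 1 form of the core read by SOX factors such as Sox10, were searched on both strands. They occurred in none of the 5 windows and in 16.5% of all windows. Other forms of the core were not searched, so the windows may still hold a SOX site.

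Pdgfra, the growth factor receptor of the precursor (ENSMUSG00000029231), was the gene most unequal between the lineage classes. Its level in precursor-like nuclei was 1183 and 1008 CPM in the control libraries 1 and 2, 1158 and 779 in BCAS, 1145 and 914 in TBI, and 965 and 1287 in BCAS+TBI, a mean of 1055 ± 167 CPM (SD, n = 8 libraries). In oligodendrocyte-like nuclei the mean was 4.89 ± 2.87 CPM (SD, n = 8), 216 times lower, and precursor-like nuclei were higher in 8 of 8 libraries. After each nucleus was thinned to 1000 UMIs, 59.8% of 1104 precursor-like nuclei held a Pdgfra UMI (95% Wilson interval 56.9% to 62.6%) against 0.492% of 1828 oligodendrocyte-like nuclei and 0.190% of excitatory neuron-like nuclei, a class that should lack the gene; without thinning the shares were 80%, 0.681% and 1.15%, at median depths of 2322, 1340 and 6384 UMIs. Wilson intervals here and below cover counting error only. Fibroblast-like nuclei were next in order, at 189 ± 51.3 CPM (SD, n = 8), and the libraries of the 2 classes did not overlap. Of all Pdgfra UMIs in kept nuclei, 53.3% lay in the lineage nuclei.

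Olig1 and Olig2, the paired helix-loop-helix factors of the lineage (ENSMUSG00000046160 and ENSMUSG00000039830), were present in both classes and lower in the mature one. Olig1 stood at 133 ± 25.7 CPM in precursor-like and 75.5 ± 26.4 CPM in oligodendrocyte-like nuclei (SD, n = 8), a ratio of 1.77. Olig2 stood at 121 ± 29.6 and 35.7 ± 15.4 CPM (SD, n = 8), a ratio of 3.39. Precursor-like nuclei were higher in 8 of 8 libraries for both genes, although the ranges of Olig1 over libraries overlapped between the classes. Sox10, a transcription factor that activates myelin genes (ENSMUSG00000033006), was close to level, at 337 ± 89.2 CPM in precursor-like and 295 ± 80.3 CPM in oligodendrocyte-like nuclei (SD, n = 8), with precursor-like nuclei higher in 7 of 8 libraries. For Pdgfra, Olig1, Olig2 and Sox10 in precursor-like nuclei the library sets did not overlap, and the 4 lower-depth libraries were the higher ones. Pdgfra ran from 1145 to 1287 CPM in the lower-depth and from 779 to 1008 CPM in the higher-depth libraries, and Sox10 from 366 to 489 CPM and from 241 to 290.0 CPM. In oligodendrocyte-like nuclei the sets were apart for Sox10, in the same direction, and for Bcas1, which ran from 586 to 677 CPM in the lower-depth and from 709 to 765 CPM in the higher-depth libraries. The share of all genes with the sets apart was not computed, so this is not read as a trait of these genes. Deviations from the group mean correlated between same-set libraries at 0.42 to 0.52 over 6089 genes in precursor-like nuclei. In oligodendrocyte-like nuclei they correlated at 0.41 to 0.65 over 7030 genes.

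Gpr17, the receptor of the committed stage (ENSMUSG00000052229), was highest in precursor-like nuclei among the named classes. Its level there was 317 ± 70.3 CPM (SD, n = 8) against 6.88 ± 8.08 CPM in oligodendrocyte-like nuclei, a ratio of 46.1, and 2 of 8 oligodendrocyte-like libraries had no Gpr17 UMI. At 1000 UMIs per nucleus 24.1% of precursor-like nuclei held a Gpr17 UMI, against 0.492% of oligodendrocyte-like and 0.101% of excitatory neuron-like nuclei. Bmp4, a secreted ligand of the BMP family (ENSMUSG00000021835), rested on 59 UMIs in precursor-like and 5 UMIs in oligodendrocyte-like nuclei, at 19.4 ± 8.99 and 1.38 ± 2.71 CPM (SD, n = 8). Among the named classes its level was highest in fibroblast-like nuclei, at 111 ± 32.8 CPM (SD, n = 8). Mural-like nuclei followed at 32.3 ± 26.7 CPM (SD, n = 8), and their libraries overlapped with those of both neighbours in the order. The lineage nuclei held 11.1% of all Bmp4 UMIs. Bmp4-positive nuclei counted over the whole tissue thus include fibroblast-like and mural-like nuclei as well as lineage nuclei. They also include nuclei of unnamed clusters, counted below.

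Enpp6 and Myrf ran the other way. Enpp6, a choline-releasing phosphodiesterase on the surface of new oligodendrocytes (ENSMUSG00000038173), stood at 76.8 ± 26 CPM in precursor-like and 189.8 ± 30.9 CPM in oligodendrocyte-like nuclei (SD, n = 8), 2.47 times higher in the latter and higher in 8 of 8 libraries. Myrf, the regulator of myelin genes (ENSMUSG00000036098), stood at 19.7 ± 5.80 and 165 ± 30.5 CPM (SD, n = 8), 8.37 times higher in oligodendrocyte-like nuclei and again in 8 of 8 libraries. Bcas1 (ENSMUSG00000013523) hardly differed between the class totals, at 765 ± 158 and 678 ± 69.6 CPM (SD, n = 8), a ratio of 1.13. Itpr2, an inositol trisphosphate receptor that releases calcium from internal stores (ENSMUSG00000030287), was 14.5 times higher in precursor-like nuclei, at 425 ± 64.5 against 29.3 ± 11.6 CPM (SD, n = 8). It was no lineage-restricted gene in this tissue: microglia-like nuclei stood at 484 ± 127 CPM, mural-like at 293 ± 142 and astrocyte-like at 273 ± 47.0 CPM (SD, n = 8), each overlapping with its neighbour in the order, and the lineage nuclei held 12.6% of its UMIs.

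**Figure D1:**
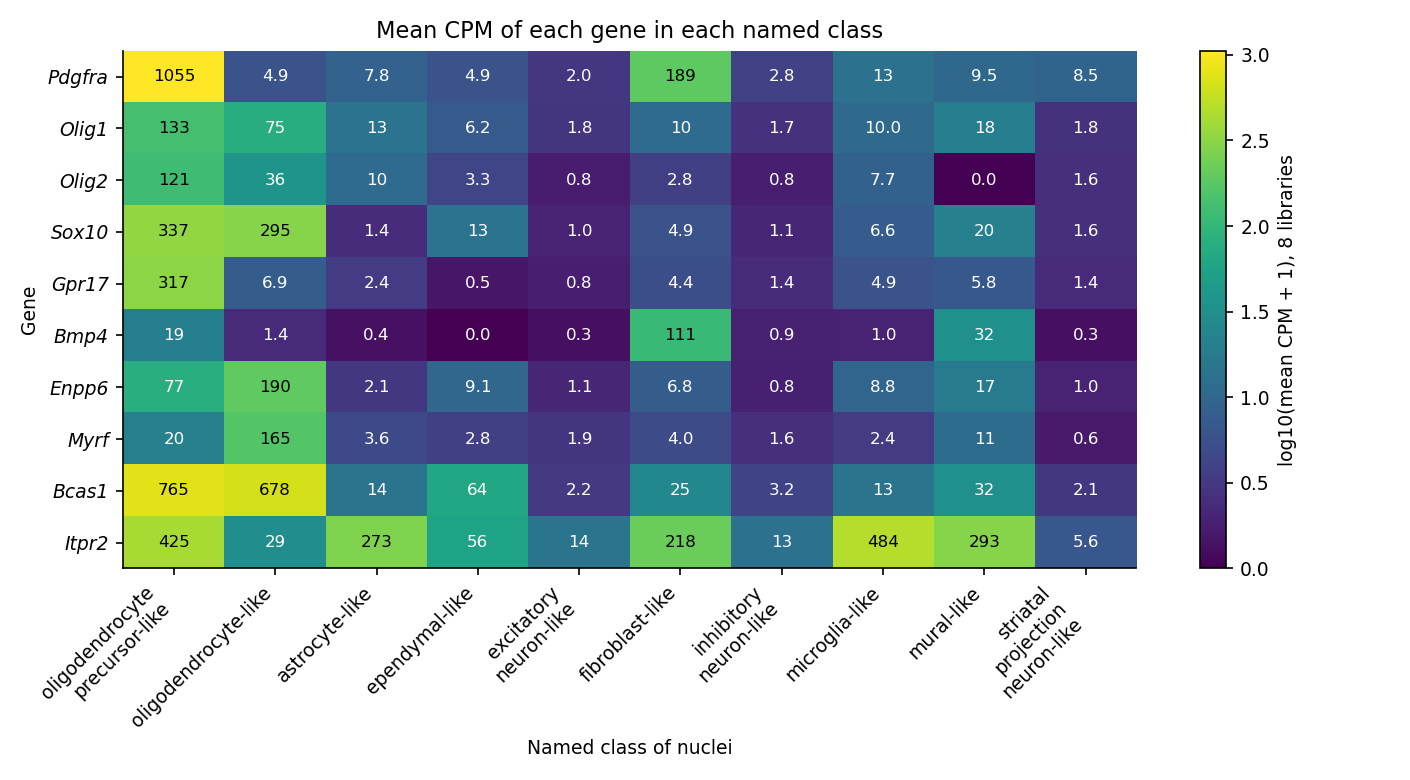
Mean CPM over 8 libraries of each of the 10 genes (rows) in each named class of nuclei (columns), with the colour on a log10(CPM + 1) scale; levels are to be compared along a row, since CPM is not corrected for gene length. Pdgfra and Bmp4 have a further high level in the fibroblast-like class (189 and 111 CPM) and Itpr2 in 4 further classes.

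The class totals hid a small group of nuclei in which the stage genes were concentrated. Sub-clustering of the lineage nuclei, again without the 10 genes, gave 11 sub-clusters. Sub-cluster 1 held 77 nuclei, all from the precursor-like class, and carried 10 of the 11 committed and newly formed markers present in the files, with Fyn at 3999 CPM, 9630013A20Rik at 1696 CPM and Tcf7l2 at 1686 CPM in its summed counts. It is called the committed-stage sub-cluster; 42 of its nuclei came from the lower-depth and 35 from the higher-depth libraries. Because clusters were formed from the same nuclei, its levels are given as a description without a test. Summed over libraries, Gpr17 stood at 1484 CPM in it against 228 CPM in the other 1093 precursor-like nuclei, and Bcas1 at 5013 against 481 CPM. Bmp4 stood at 247 against 3.65 CPM, a ratio of 67.8, and Enpp6 at 1005 against 11.7 CPM, a ratio of 86.0. Itpr2 was 2.43 times and Myrf 9.09 times the level in the other precursor-like nuclei (969 against 398 CPM and 116 against 12.8 CPM), while Pdgfra was at 20.2 against 1098 CPM. Sox10 was 1.68 times as high (515 against 306 CPM).

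These 77 nuclei, 2.10% of the lineage nuclei, accounted for 83.1% of the Bmp4 UMIs and 86.1% of the Enpp6 UMIs of the precursor-like class, and for 43.0% of its Bcas1, 39.7% of its Myrf and 32.0% of its Gpr17 UMIs. They held 0.133% of its Pdgfra UMIs. All 77 nuclei held a Bcas1 UMI, 64 a Gpr17 UMI, 57 an Enpp6 UMI, 53 an Itpr2 UMI, 31 a Bmp4 UMI, 18 a Myrf UMI and 4 a Pdgfra UMI. Outside it, 395 of 1093 precursor-like nuclei held a Gpr17 UMI but only 19 an Enpp6 and 10 a Bmp4 UMI. Gpr17 was thus spread over the precursor-like nuclei, and Bmp4 and Enpp6 were not. Compared with oligodendrocyte-like nuclei the committed-stage nuclei were 5.39 times higher in Enpp6 (187 CPM in the summed oligodendrocyte-like counts) and 7.25 times higher in Bcas1 (692 CPM), and 0.720 times as high in Myrf (161 CPM). Under 3 other sub-clustering settings, added after the data were seen, the sub-cluster held 75, 82 and 77 nuclei, of which 75, 77 and 77 were shared.

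**Figure D2:**
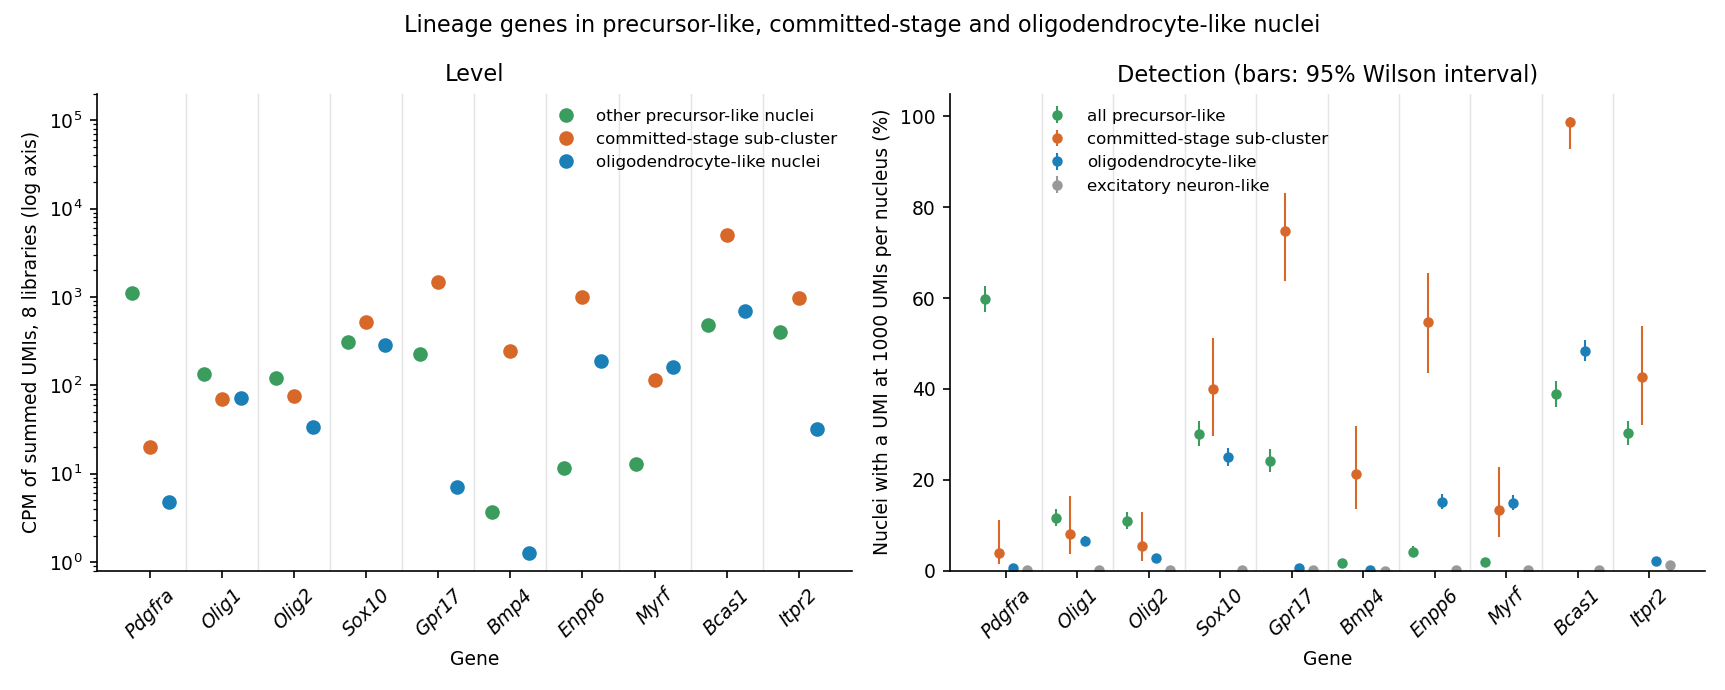
Left, CPM of summed UMIs on a log axis for each of the 10 genes in precursor-like nuclei outside the committed-stage sub-cluster, in that sub-cluster (77 nuclei) and in oligodendrocyte-like nuclei; right, share of nuclei with a UMI at 1000 UMIs each, with 95% Wilson intervals, in all precursor-like nuclei, the sub-cluster, oligodendrocyte-like and excitatory neuron-like nuclei. On the left Sox10, Gpr17, Bmp4, Enpp6, Bcas1 and Itpr2 are highest in the committed-stage sub-cluster, Pdgfra, Olig1 and Olig2 in the other precursor-like nuclei and Myrf in the oligodendrocyte-like nuclei.

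Over all kept nuclei, 928 held a Gpr17 UMI, 1532 an Enpp6 UMI, 478 a Bmp4 UMI, and 2625 at least 1 of the 3. Of the Gpr17-positive nuclei 459 (49.5%) were precursor-like, 23 oligodendrocyte-like, 92 excitatory neuron-like and 218 in unnamed cluster 10. Enpp6-positive nuclei were oligodendrocyte-like in 492 cases (32.1%), precursor-like in 76 and in unnamed cluster 10 in 584. Bmp4-positive nuclei were fibroblast-like in 190 cases (39.7%), in unnamed cluster 10 in 75, in unnamed cluster 1 in 47 and precursor-like in 41. Cluster 1 had 7 endothelial markers raised and stayed unnamed because haemoglobin genes were among its leading genes. Excitatory neuron-like nuclei gave a background of 1.41% with any of the 3 genes, at a median of 6384 UMIs, and 0.241% at 1000 UMIs per nucleus. At that depth 25.9% of precursor-like nuclei (95% Wilson interval 23.4% to 28.6%) and 15.7% of oligodendrocyte-like nuclei (14.1% to 17.4%) held 1 of the 3.

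In the lineage nuclei Gpr17 and Enpp6 were mostly found without the other 2 genes, and Bmp4 mostly with them. Gpr17 without the other 2 was found in 414 nuclei, 393 of them precursor-like, and Enpp6 without the other 2 in 509 nuclei, 489 of them oligodendrocyte-like. Bmp4 alone was found in 9 nuclei. Gpr17 with Enpp6 occurred in 34 nuclei, of which 24 were in the committed-stage sub-cluster, Gpr17 with Bmp4 in 12 (8 in the sub-cluster), and Enpp6 with Bmp4 in 3 (2 in the sub-cluster). All 3 genes together were found in 22 nuclei, of which 21 were in the sub-cluster. Every library had at least 1 such nucleus: 2 and 2 in control, 2 and 5 in BCAS, 3 and 1 in TBI, and 5 and 2 in BCAS+TBI.

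Co-detection at 1000 UMIs per nucleus separated the receptor of the precursor from the later genes. Of 45 precursor-like nuclei with Enpp6, 2 also held Pdgfra (4.44%, 95% Wilson interval 1.23% to 14.8%), against 62.1% of the nuclei without Enpp6. Of 19 nuclei with Bmp4, 3 held Pdgfra (15.8%, 5.52% to 37.6%), against 60.6% of those without. Gpr17 was different: 142 of 266 Gpr17-positive nuclei held Pdgfra (53.4%, 47.4% to 59.3%), against 61.8% of the others. Enpp6-positive nuclei held Bcas1 in 44 of 45 cases (97.8%, 88.4% to 99.6%) and Gpr17 in 32 of 45 (71.1%, 56.6% to 82.3%), against 36.4% and 22.1% of the nuclei without Enpp6. Bmp4-positive nuclei held Bcas1 in 18 of 19, Gpr17 in 12 and Enpp6 in 9 cases. Myrf, met in 21 precursor-like nuclei, occurred with Bcas1 in 16, with Gpr17 in 10 and with Pdgfra in 6 of them. Nuclei of a library share its depth and preparation, so these intervals describe counting only.

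Within the oligodendrocyte-like class Enpp6 was uneven. Klk6, a secreted protease of mature oligodendrocytes, was among the 10 leading genes of sub-clusters 2 and 4 (557 nuclei, median 1877 UMIs), and these were compared with the 2 largest mature sub-clusters, 0 and 6 (1781 nuclei); the comparison was chosen after the values were seen and has no test. Sub-clusters 0 and 2 came almost wholly from the lower-depth libraries and 6 and 4 from the higher-depth ones, so the pairs were summed. Klk6 itself was found in 13.8% of the nuclei of sub-clusters 2 and 4 (81.3 CPM in the summed counts). In sub-clusters 0 and 6 it was found in 0.393% (3.11 CPM). Enpp6 in sub-clusters 2 and 4 stood at 435 and 412 CPM in control, 605 and 411 in BCAS, 257 and 444 in TBI, and 448 and 468 in BCAS+TBI. In the largest sub-clusters it stood at 54.6 and 108 CPM in control, 81.0 and 97.4 in BCAS, 156 and 115 in TBI, and 132 and 60.6 in BCAS+TBI. The first were higher in 8 of 8 libraries, 4.12 times in the summed counts, and no library of one overlapped with a library of the other. Myrf (163 and 169 CPM in the summed counts), Bcas1 (726 and 680 CPM) and Sox10 (287 and 288 CPM) did not follow Enpp6. Gpr17 had 1 UMI in sub-clusters 2 and 4 (0.864 CPM) against 13 in the largest sub-clusters (5.78 CPM). Bmp4 had 1 against 2 UMIs (0.864 and 0.889 CPM), too few to compare. Sub-cluster 5 (133 nuclei), led by Prom1, Man1a and others, held 9630013A20Rik at 586 CPM but Enpp6 at 21.6 CPM, with Itpr2 at 108 CPM.

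**Figure D3:**
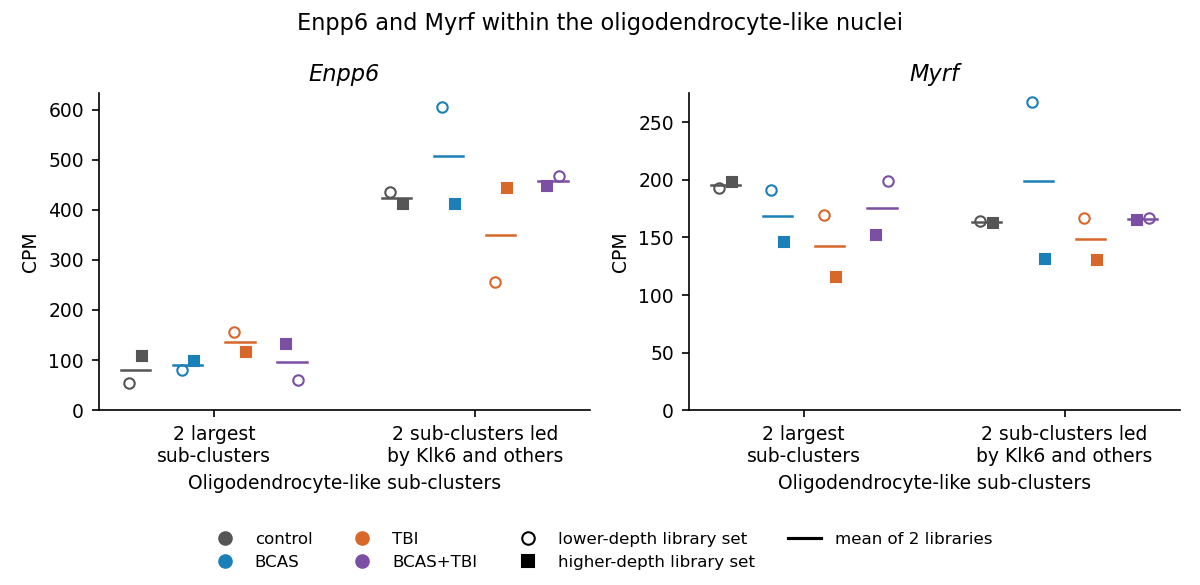
CPM of Enpp6 and of Myrf by library in the 2 largest oligodendrocyte-like sub-clusters and in the 2 sub-clusters with Klk6 among their leading genes; points are libraries, bars the mean of the 2 libraries of a group, open circles the lower-depth set. Enpp6 runs from 54.6 to 156 CPM in the first and from 257 to 605 CPM in the second, while the Myrf ranges overlap.

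The groups were compared on counts summed per library and class, for TBI surgery averaged over BCAS, BCAS surgery averaged over TBI, BCAS+TBI against TBI alone, and the interaction of the surgeries. No lineage gene passed an adjusted p of 0.05 in any of them by edgeR's quasi-likelihood test with Benjamini-Hochberg adjustment over all 81687 pairs of class and gene, and the share called over all pairs was 0% in each comparison. A gene entered only with enough counts: 9 of 10 were tested in precursor-like nuclei (not Myrf) and 7 of 10 in oligodendrocyte-like nuclei (not Pdgfra, Gpr17 and Bmp4). None of the 16 was under an unadjusted p of 0.05 either, against 0.832%, 0.801%, 0.939% and 1.06% of all pairs of the 2 lineage classes in the 4 comparisons in that order. DESeq2 called none of the 10 genes. Precursor-like counts with known changes for TBI surgery averaged over BCAS were simulated for 7512 genes, with the adjustment over these genes only. There the test recovered 17.5% of 2-fold and 97.0% of 4-fold changes, so changes of 2-fold or less were mostly not detectable at this depth. The real comparisons adjusted over all 81687 pairs, and the recovery of 4-fold changes under that adjustment was not measured.

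Where libraries of groups are said below to lie apart, each group has only 2 libraries. The share of all genes with groups apart in this way was not computed, so such separations are not read as a trait of these genes. In precursor-like nuclei Gpr17 came nearest to a difference. It stood at 383 and 282 CPM in control, 333 and 265 in BCAS, 307 and 192 in TBI, and 395 and 383 in BCAS+TBI. The 2 BCAS+TBI libraries were above the 2 TBI and the 2 BCAS libraries without overlap, and the log2 fold change for BCAS+TBI against TBI was 0.64 ± 0.30 (SE; unadjusted p = 0.0525 and adjusted p = 1.00 by edgeR). With the library set as a block the log2 fold change was 0.67 ± 0.19 (SE; unadjusted p = 0.000872 by edgeR, adjusted p = 1.00). Without the committed-stage nuclei, an alternative added after the data were seen, it was 0.88, and over all 32 alternatives it ran from 0.37 to 0.99 with adjusted p from 0.408 to 1.00. Enpp6 stood at 94.8 and 52.0 CPM in control, 75.8 and 99.2 in BCAS, 74.8 and 38.5 in TBI, and 117 and 62.0 in BCAS+TBI; both BCAS libraries were above both TBI libraries, and the other pairs of groups overlapped. Bcas1 stood at 857 and 739 CPM in control, 602 and 891 in BCAS, 651 and 636 in TBI, and 1059 and 682 in BCAS+TBI; both TBI libraries were below both control and both BCAS+TBI libraries, with a log2 fold change of 0.44 ± 0.32 (SE) for BCAS+TBI against TBI.

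With the library set as a block, 3 of the 16 tested pairs were under an unadjusted p of 0.05 for BCAS+TBI against TBI (Gpr17, Enpp6 and Bcas1, all in precursor-like nuclei, all higher in BCAS+TBI). The background in the 2 lineage classes was 4.02%. The interaction gave 2 (Gpr17 and Bcas1 in precursor-like nuclei, background 4.93%), BCAS averaged over TBI gave 2 (Enpp6 in precursor-like and Itpr2 in oligodendrocyte-like nuclei, background 3.54%), and TBI averaged over BCAS gave none (background 3.4%). None of these passed the adjusted threshold, at which the block called 0.0049%, 0.00122%, 0% and 0.00367% of all pairs for TBI, BCAS, BCAS+TBI against TBI and the interaction. The summed level of markers of mature oligodendrocytes in precursor-like nuclei, 10 of 10 markers detected, was highest in TBI 1 (2803 CPM) and lowest in TBI 2 (675 CPM), with 1343 to 2022 CPM in the other 6 libraries. The BCAS+TBI libraries (1349 and 1596 CPM) lay between the TBI libraries. Whether this marker level bears on the levels of Gpr17, Enpp6 or Bcas1 was not tested.

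Bmp4 in precursor-like nuclei stood at 15.2 and 15.2 CPM in control, 12.6 and 18.6 in BCAS, 27.4 and 5.92 in TBI, and 31.3 and 29.2 in BCAS+TBI, on 59 UMIs in all. Both BCAS+TBI libraries were above the other 6, of which the TBI libraries were the highest and the lowest, and the log2 fold change for BCAS+TBI against TBI was 0.82 ± 0.72 (SE). Itpr2 stood at 353 and 520.4 CPM in control, 404 and 523 in BCAS, 434 and 391 in TBI, and 407 and 368 in BCAS+TBI, with overlapping groups. For TBI averaged over BCAS the 9 tested genes had log2 fold changes with a median of 0.00, beside 0.01 for all genes tested in the class, with 5 above and 4 below 0. For BCAS+TBI against TBI the median was 0.12 beside -0.01 for all genes, with 6 above and 3 below 0.

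In oligodendrocyte-like nuclei Enpp6 stood at 168 and 188 CPM in control, 229 and 177 in BCAS, 167 and 222 in TBI, and 222 and 146 in BCAS+TBI. Myrf stood at 189.7 and 182 CPM in control, 211 and 135 in BCAS, 156 and 118 in TBI, and 152 and 174 in BCAS+TBI. For Enpp6 the groups overlapped. For Myrf both TBI and both BCAS+TBI libraries were below both control libraries and the BCAS libraries spanned them, and the log2 fold change with TBI surgery, averaged over BCAS, was -0.24 ± 0.22 (SE; unadjusted p = 0.303 by edgeR). Itpr2 was the gene with the smallest p in this class, at 21.6 and 25.3 CPM in control, 27.7 and 47.9 in BCAS, 27.9 and 10.7 in TBI, and 42.0 and 31.2 in BCAS+TBI. Both BCAS and both BCAS+TBI libraries were above both control libraries, and both BCAS+TBI libraries above both TBI libraries. The log2 fold change of Itpr2 for BCAS averaged over TBI was 0.79 ± 0.36 (SE; unadjusted p = 0.0504 and adjusted p = 1.00 by edgeR). For TBI averaged over BCAS the 7 tested genes had a median log2 fold change of -0.02, beside 0.01 for all genes of the class.

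**Figure D4:**
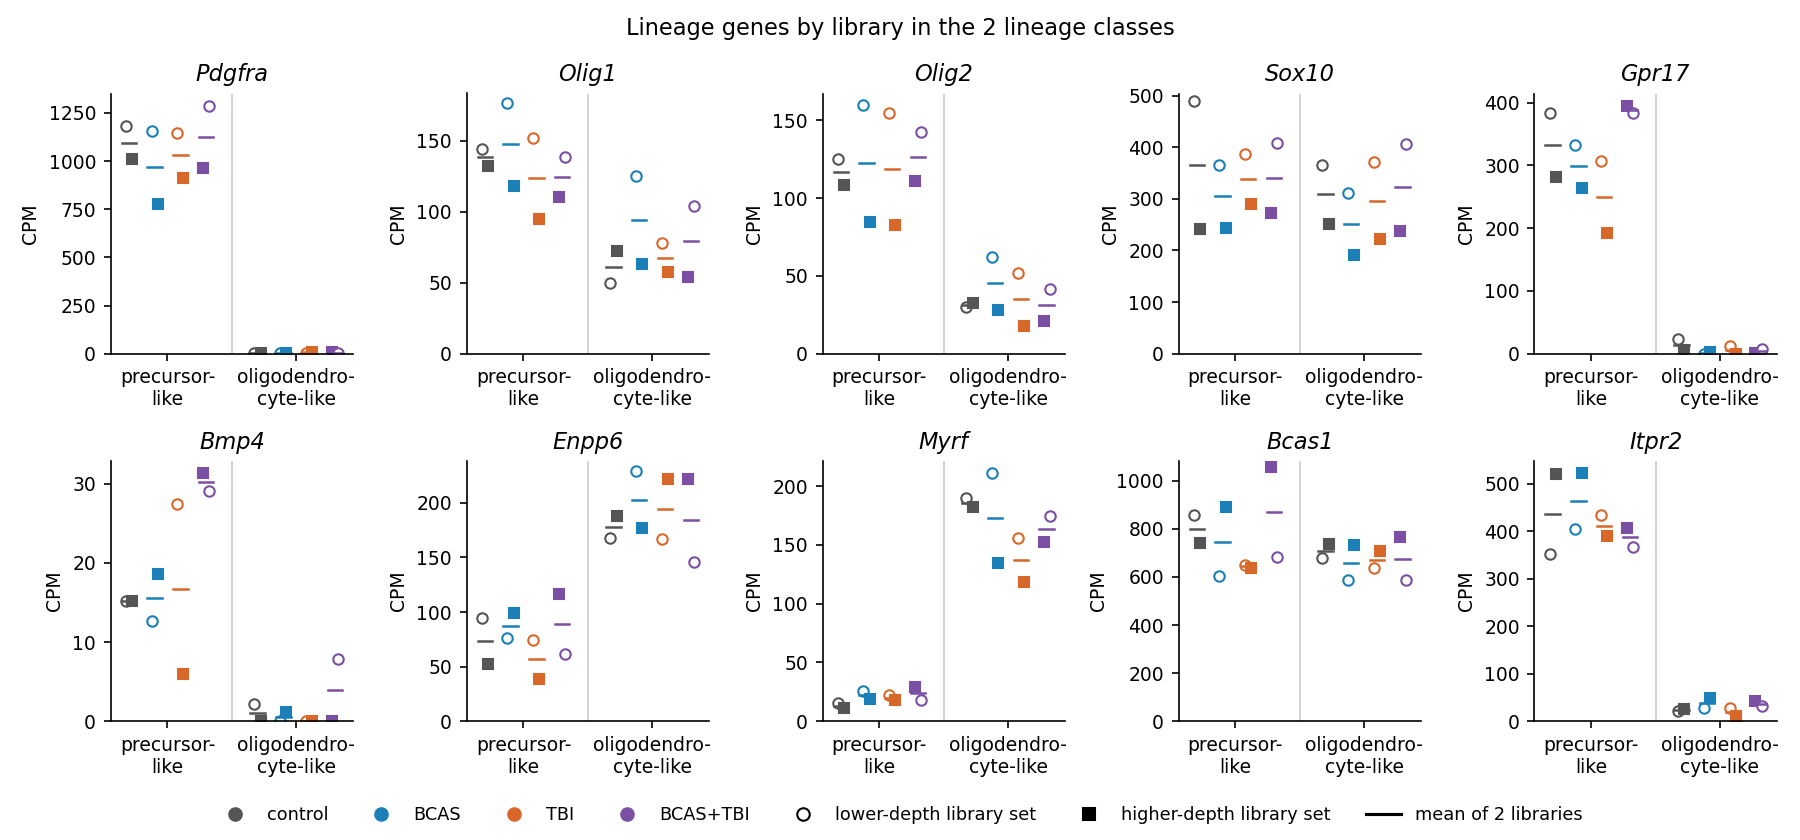
CPM of each gene by library in the precursor-like (left of the line) and oligodendrocyte-like (right) class; points are libraries, coloured by group, horizontal bars are the mean of the 2 libraries of a group, open circles the lower-depth and squares the higher-depth library set. Between-class differences exceed the spread of libraries for Pdgfra, Olig2, Gpr17, Enpp6, Myrf and Itpr2, while groups within a class mostly overlap.

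In whole libraries, where all 10 genes were tested, none passed the adjusted threshold in the 4 comparisons (edgeR over 23965 genes, 0% of all genes called) and none was under an unadjusted p of 0.05, against 0.296%, 0.305%, 0.242% and 0.246% of all genes for TBI, BCAS, BCAS+TBI against TBI and the interaction. In such sums fewer lineage nuclei and less RNA per nucleus cannot be told apart. TBI 2 was the lowest of the 8 libraries for 10 of 10 genes. The share of all genes lowest in TBI 2 was not computed, so this count is not read as a trait of these genes. Bcas1, for instance, was at 52.7 and 41.4 CPM in control, 44.8 and 57.0 in BCAS, 50.3 and 13.6 in TBI, and 50.8 and 43.4 in BCAS+TBI. Sox10 was at 31.1 and 13.6 CPM in control, 25.8 and 16.3 in BCAS, 30.2 and 4.70 in TBI, and 16.8 and 32.8 in BCAS+TBI. TBI 2 held 187 oligodendrocyte-like nuclei among 7157, the fewest of the 8 libraries, and 128 precursor-like nuclei. It also held the fewest astrocyte-like nuclei (252) and the most excitatory neuron-like nuclei (3363). With the library set as a block, 1 of 10 genes was under an unadjusted p of 0.05 for BCAS averaged over TBI (Olig1, background 2.31%) and 2 for BCAS+TBI against TBI (Pdgfra and Gpr17, background 3%). None was for TBI averaged over BCAS (background 2.94%) or the interaction (background 2.88%), and none passed the adjusted threshold, at which 0% of genes were called.

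The makeup of the lineage was compared by exact permutation tests of 4 against 4 libraries, 12 tests in all, which cannot give a p below 0.0286. The precursor-like share of lineage nuclei was 27.7% and 31.8% in control, 34.6% and 25.3% in BCAS, 34.0% and 40.6% in TBI, and 33.6% and 33.3% in BCAS+TBI. Libraries with TBI surgery had a mean of 35.4% ± 3.50 and those without 29.8% ± 4.14 (SD, n = 4 each), a difference of 5.55 points (exact two-sided p = 0.114, adjusted p = 0.457). It was 2.54 points in the lower-depth and 8.57 points in the higher-depth set, and 3.81 points without TBI 2. At 1000 UMIs per nucleus, lineage nuclei with Gpr17, Enpp6 or Bmp4 made up 21.2% and 17.8% in control, 23.8% and 17.2% in BCAS, 17.1% and 15% in TBI, and 24% and 22.2% in BCAS+TBI. The difference with BCAS surgery was 4.02 points (exact two-sided p = 0.0857, adjusted p = 0.457), 3.86 points in the lower-depth and 4.19 points in the higher-depth set. Without thinning it was 0.494 points, and with thinning to 500 UMIs 0.261 points. The difference with TBI surgery was -0.43 points (exact two-sided p = 0.857), with opposite signs in the library sets (-2.86 and 1.99 points).

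Bmp4 alone gave the smallest p of the 12. At 1000 UMIs per nucleus, 0.580% and 0.785% of lineage nuclei held a Bmp4 UMI in control, 0.851% and 0.912% in BCAS, 0.723% and 0% in TBI, and 0.959% and 0.949% in BCAS+TBI. Each of the 4 libraries with BCAS surgery was above each of the 4 without, by 0.396 points on average (exact two-sided p = 0.0286, adjusted p = 0.343). The shares rest on a few nuclei per library, the test did not pass the adjustment, and with at least 2 UMIs required in unthinned nuclei the difference was -0.05 points. Gpr17 differed by 2.72 points and Enpp6 by 1.47 points with BCAS surgery (exact two-sided p = 0.229 for each, adjusted p = 0.549).

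Counted over all kept nuclei, those with Gpr17, Enpp6 or Bmp4 numbered 298 and 355 in control, 292 and 453 in BCAS, 356 and 234 in TBI, and 361 and 276 in BCAS+TBI. Per 1000 kept nuclei this was 55.5 and 63.7 in control, 56.5 and 70.5 in BCAS, 70.5 and 32.7 in TBI, and 63.8 and 53.6 in BCAS+TBI. TBI surgery gave a difference of -6.38 per 1000 (exact two-sided p = 0.571) and BCAS surgery 5.50 per 1000 (p = 0.629 by the same exact test), and both had opposite signs in the 2 library sets. The committed-stage sub-cluster held 13 and 7 nuclei in control, 7 and 11 in BCAS, 15 and 5 in TBI, and 12 and 7 in BCAS+TBI. As a share of precursor-like nuclei it was 9.15% and 5.30% in control, 5.79% and 7.01% in BCAS, 8.57% and 3.91% in TBI, and 7.10% and 4.79% in BCAS+TBI. Every pair of groups overlapped.

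**Figure D5:**
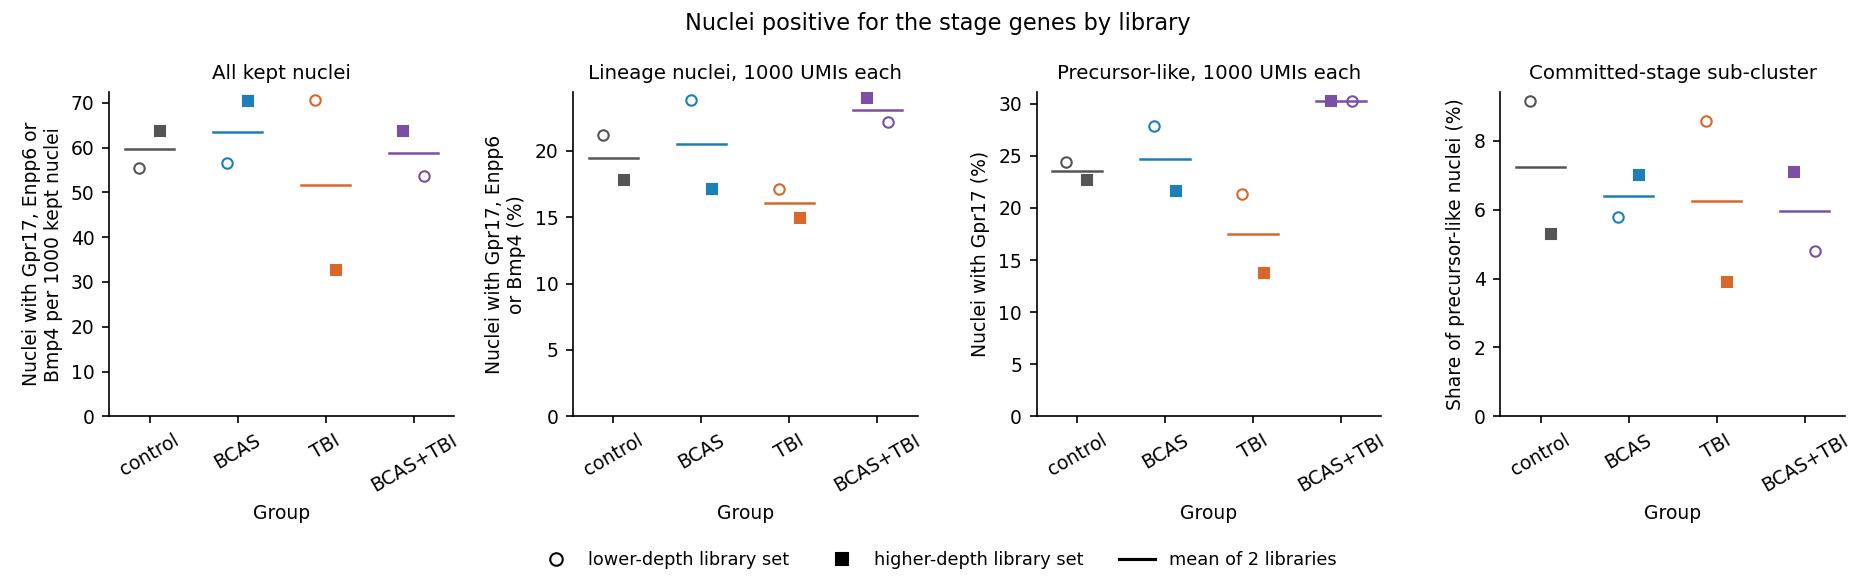
By library and group, from left: nuclei with Gpr17, Enpp6 or Bmp4 per 1000 kept nuclei, the share of lineage nuclei with any of them and the share of precursor-like nuclei with Gpr17 (both at 1000 UMIs per nucleus), and the share of precursor-like nuclei in the committed-stage sub-cluster; points are libraries, bars the mean of 2. The BCAS+TBI libraries (30.2% and 30.3% with Gpr17) lie above the TBI libraries (21.3% and 13.7%) in the third panel, for which no test was made; no test of the first and second panels passed its adjustment, and none was made for the fourth.

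Genes known to accompany these 10 were read from 4 lists, chosen with earlier results of these data known. In precursor-like nuclei, 11 of 15 genes of the precursor state and inhibitors of differentiation, 12 of 15 differentiation factors, 8 of 12 committed and newly formed genes and 7 of 18 ligands and receptors of the PDGF and BMP pathways were tested. None passed the adjusted threshold in any of the 4 comparisons in either class. For TBI averaged over BCAS their median log2 fold changes were 0.05, -0.03, -0.04 and 0.02, beside 0.01 for all 7512 genes of the class. Tmem163, a zinc transporter gene of the committed list, had the smallest p of these genes, with a log2 fold change of -0.55 ± 0.23 (SE; unadjusted p = 0.0344 and adjusted p = 1.00 by edgeR). The others named by the rule of the 2 smallest p per list were Rras2 (log2 fold change -0.68), Sirt2 (-0.34), Hdac11 (-0.48), Sox4 (0.26), Hes1 (0.44), Bmpr1a (0.25) and Smad5 (-0.25). Sirt2, a deacetylase found in myelin, stood at 163 and 134 CPM in control, 152 and 194 in BCAS, 150 and 94.7 in TBI, and 138 and 120.3 in BCAS+TBI; both BCAS libraries were above both TBI and both BCAS+TBI libraries, and the other pairs of groups overlapped. For BCAS+TBI against TBI the committed and newly formed genes differed between the classes. In precursor-like nuclei the 8 tested had a median log2 fold change of -0.25, beside -0.01 for all genes, with 4 above and 4 below 0. In oligodendrocyte-like nuclei the 7 tested had a median log2 fold change of 0.56, beside 0.00 for all genes of the class. Of the 7, 6 were above and 1 below 0, where 50.1% of all genes of the class were above 0, and 2 were under an unadjusted p of 0.05, against 0.939% of all pairs of the 2 lineage classes. Those 2, named after their values were seen, were Prom1 and 9630013A20Rik. Both rest on few nuclei. Over the 8 libraries Prom1 had 80 UMIs, in 1.48% of oligodendrocyte-like nuclei, and 9630013A20Rik 201 UMIs, in 1.28%. Prom1, a membrane glycoprotein gene, measured 13.0 and 3.58 CPM in TBI 1 and 2 and 24.5 and 33.8 CPM in BCAS+TBI 1 and 2 (log2 fold change 1.62 ± 0.62, SE; unadjusted p = 0.0268 and adjusted p = 1.00 by edgeR). The noncoding 9630013A20Rik measured 3.72 and 0 CPM in TBI 1 and 2 and 49.0 and 65.1 CPM in BCAS+TBI 1 and 2 (unadjusted p = 0.0299 and adjusted p = 1.00 by edgeR). Its libraries were farther apart within control and within BCAS, at 10.8 and 99.2 CPM in control 1 and 2 and 0 and 95.7 CPM in BCAS 1 and 2.

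The genes most like the 3 stage genes were sought by Pearson's r of log CPM over 43 clusters and lineage sub-clusters among 11231 genes, as a description, since the clusters share libraries and depth. For Gpr17 they were Neu4 (r = 0.97), a sialidase gene, Mroh3 (0.94) and S100a3 (0.92). Neu4 stood at 520.0 CPM in the committed-stage sub-cluster, 191 CPM in the other precursor-like and 2.26 CPM in the oligodendrocyte-like nuclei. For Enpp6 they were Efcab14 (r = 0.92), Srpk3 (0.92) and Rhbdl2 (0.91), of which Rhbdl2 stood at 232, 4.01 and 20.4 CPM in the same order. For Bmp4, with 64 lineage UMIs, they were Ptpn14 (r = 0.77), Foxp4 (0.75) and Eya2 (0.74). Among the 10 genes, Enpp6 was most like Myrf (r = 0.91), Gpr17 most like Olig2 (0.80), and Bmp4 most like Itpr2 (0.54), with which it shares levels in fibroblast-like and mural-like nuclei.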

How the data were processed

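Filtered matrices of whole-number UMI counts for 54232 genes, written by Cell Ranger 7.0.0 (per the file headers), were used as deposited by the authors; GRCm38 (mm10) and Seurat are named in the submitters' processing notes. The role of Seurat and the annotation release are not given in the sources used here. A barcode needed 500 UMIs, 300 detected genes and no more than 5% mitochondrial UMIs (4922 failed). Scrublet's own threshold marked at most 0.0506% of a library, so the highest-scoring 6% of each library were removed (2908 barcodes). Clustering (scanpy 1.11.5, Leiden through igraph 0.11.9) used 3000 variable genes without the 10 lineage genes, 30 components, 15 neighbours and resolution 1. Classes were named from fixed markers; lineage nuclei were sub-clustered the same way. Counts summed per library and class (classes with at least 20 nuclei in each library) were tested with edgeR 4.0.16 (TMM, minimum count 10, group means as 4 coefficients, Benjamini-Hochberg over all pairs of class and gene) and with DESeq2 1.42.0; shares were tested by exact permutation of 4 against 4 libraries. CPM scales the summed counts of each library and class to a common total. The edgeR step was tested on simulated data (17.5% of 2-fold and 97.0% of 4-fold changes recovered among 7512 genes, with 1 and 14 false calls). Thinning drew 1000 UMIs per nucleus and left out shallower nuclei (66 precursor-like, 670 oligodendrocyte-like).

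The 10 genes, the 4 lists and the library sets were chosen with earlier results of these data known. The text names all 10 genes, listed genes past the threshold, the 2 smallest p of each list in precursor-like nuclei for TBI averaged over BCAS, and the 3 genes most like Gpr17, Enpp6 and Bmp4. Alternatives were other normalizations, filters, tools, blocks, thinning depths, resolutions and leaving out each library. Columns of other series numbered 0. Unnamed clusters were left out of class tests.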

Additional observations from a re-analysis of the deposited data

Results flagged for a closer look

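The precursor-like share of lineage nuclei in TBI 2, 40.6%, stood apart from the other 3 libraries with TBI surgery, which lay between 33.3% and 34.0%. In BCAS 2 the same share, 25.3%, stood apart from the other 3 libraries with BCAS surgery, at 33.3% to 34.6%. In both cases the gap to the nearest library divided by the range of 4 exceeded Dixon's 95% critical value (ratios of 0.902 and 0.867). The check was made on 64 sets of 4 libraries, over whole-library levels of the 10 genes and the 6 shares, and chance marks about 1 set in 20.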

How the results depend on the processing

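No lineage gene passed the adjusted threshold in either lineage class under any alternative run, including DESeq2, no filter and leaving out each library with or without the library set as a block. In whole libraries the count moved under a single setting, added after the data were seen: with the library set as a block and TBI 1 left out, so that TBI 2 alone stood for its group, 6, 5, 6 and 3 genes passed for TBI, BCAS, BCAS+TBI against TBI and the interaction, among 339, 243, 308 and 86 genes in all; the cause was not tested. Calls over all pairs, 0 in the main model, were 33, 65, 8 and 20 without a filter on low counts, 4, 1, 0 and 3 with the library set as a block, and 1, 1, 1 and 1 with DESeq2 and that block; DESeq2 alone called 2 whole-library genes for BCAS. The 104 fold changes of lineage genes were recomputed in 2324 further fits listed at the start, of which 246 had another sign and 0 passed the threshold; of 216 alternatives of the 12 share tests, 30 had another sign and 0 passed (smallest adjusted p = 0.343, exact permutation). Leaving out each library gave 3.81 to 7.13 points for the precursor-like share with TBI surgery and 3.09 to 5.56 points for Gpr17, Enpp6 or Bmp4 with BCAS surgery.

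Same-numbered libraries did not deviate together (correlation of deviations above 0.1 in 3 of 6 pairs of groups, lowest -0.52, in precursor-like nuclei), whereas libraries of a set did in 6 of 6. With the replicate number as a block the count of lineage genes past the threshold was 0 in each comparison, and the smallest adjusted p of the shares was 0.667 (exact permutation). Class levels of the 10 genes stayed within 1 SD in 113 of 130 alternatives, and all levels that moved were those of precursor-like nuclei. With doublets kept, every gene but Bmp4 was lower there by at least 1 SD. Pdgfra was then at 778, Sox10 at 239 and Bcas1 at 530 CPM. At resolution 2 Enpp6 in precursor-like nuclei was 15.5 CPM, and Myrf and Bcas1 were also lower. Bmp4 is limited by its 64 UMIs in lineage nuclei.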

Other observations

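The unnamed clusters that carried oligodendrocyte markers held many nuclei positive for the stage genes. In cluster 10, 584 of 2159 nuclei (27.0%) held an Enpp6 UMI, 218 (10.1%) a Gpr17 UMI and 75 (3.47%) a Bmp4 UMI, at a median of 11701 UMIs. In cluster 2, 100 of 370 nuclei held an Enpp6 UMI.

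Small sub-clusters of the precursor-like class differed in the same genes. Sub-cluster 8 (34 nuclei, median 3986 UMIs), with Gli3, Bmpr1b and Slc4a4 among its leading genes, held Pdgfra at 652 CPM and Gpr17 at 235 CPM. Against the other sub-clusters it had 8 astrocyte markers and 0 precursor markers raised, so it is not a plain precursor profile. Sub-cluster 10 (57 nuclei) held Mbp at 1798 CPM beside Pdgfra at 593 CPM, and Enpp6 at 112 CPM. The 2 large precursor sub-clusters, 3 and 7, came mainly from the lower-depth (403 of 452 nuclei) and the higher-depth libraries (453 of 543), with Pdgfra at 1382 and 1091 CPM and Gpr17 at 274 and 206 CPM.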
